A study of Mus musculus with 8 samples.

Results

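Costimulatory receptors were described in CD4 T cells of the mouse colon: the TNF receptor family members Tnfrsf4 (OX40), Tnfrsf9 (4-1BB), Tnfrsf18 (GITR), Tnfrsf1b (TNFR2) and Tnfrsf25 (DR3), and the CD28 family members Icos and Cd28. They were chosen by name, are 7 of the 31053 gene rows of the count tables, and all 7 had counts in the CD4 T cells of every library. The study profiled cells of the colonic lamina propria, enriched for CD4 T cells, by droplet-based 3′ single-cell RNA sequencing. Its mice were wildtype C57BL/6 or carried an alanine mutation of RORgt, the transcription factor that defines Th17 cells. The series title names the allele S182A and the sample titles S203A, and which cells carry it is not stated in the labels. Mice of each genotype either stayed untreated or received DSS (dextran sulfate sodium), a detergent-like polymer that injures the colonic epithelium. The 4 groups were therefore wildtype and mutant mice without treatment and wildtype and mutant mice with DSS, with 2 mice and 1 library per mouse in each. The DSS groups drank 2% DSS for 7 days and plain water for 3 days, the untreated groups drank plain water for 10 days, and all were taken on day 10. The mice were 10 to 12 weeks old when used. The study asked what DSS changes in wildtype mice, and what the mutation changes with and without DSS.

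A T cell needs a signal through a costimulatory receptor beside the signal through its antigen receptor. Cd28 and Icos bind B7 family ligands on antigen-presenting and stromal cells and signal through phosphoinositide 3-kinase. Tnfrsf4, Tnfrsf9, Tnfrsf18, Tnfrsf1b and Tnfrsf25 bind ligands of the TNF family (OX40 ligand, 4-1BB ligand, GITR ligand, TNF and lymphotoxin alpha, and TL1A), and the members without a death domain recruit TRAF adaptors that activate NF-kB and cell survival. Tnfrsf25 carries a death domain. Regulatory T cells (Treg cells), which express Foxp3 and restrain inflammation in the gut, are known for high levels of several of these receptors.

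By the GENCODE M21 annotation of GRCm38 (mm10), 5 of the 7 genes lie on chromosome 4 and 2 on chromosome 1. Tnfrsf4 (ENSMUSG00000029075, chr4:156013843-156016612, plus strand) and Tnfrsf18 (ENSMUSG00000041954, chr4:156026164-156028895, plus strand) are neighbours, with 9551 bases and 2 annotated genes between them. Tnfrsf1b (ENSMUSG00000028599, chr4:145213463-145246870, minus strand), Tnfrsf9 (ENSMUSG00000028965, chr4:150914562-150946102, plus strand) and Tnfrsf25 (ENSMUSG00000024793, chr4:152115934-152120119, plus strand) lie on the same chromosome. Cd28 (ENSMUSG00000026012, chr1:60716800-60773359, plus strand) and Icos (ENSMUSG00000026009, chr1:60977927-61000320, plus strand) lie on chromosome 1, farther apart than Tnfrsf4 and Tnfrsf18. Tnfrsf9 overlaps Camta1, which is annotated on the other strand and was counted at 19.5 CPM in CD4 T cells, that is UMIs (unique molecular identifiers, 1 per captured transcript) per 1000000 UMIs of these cells. Tnfrsf18 overlaps the antisense gene Gm16008, counted at 0.641 CPM. Whether the authors' counting used strand is not given in the sources used here.

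Promoter sequence is shown for the 3 members that differed with DSS over all CD4 T cells. These are the 250 bases before an annotated start (RefSeq, GRCm38.p6), written 5′ to 3′ on the gene's strand. They were searched on both strands for the kappa-B motif of NF-kB and for TGANTCA of AP-1, and these matches are in capitals. GGAAA, the core of NFAT sites, and TTCNNNGAA of STAT factors were searched too, with each motif counted whether or not it overlaps another, and are not marked. Of 32851 windows of the same length before RefSeq starts, 7.25% held the kappa-B motif, 6.75% the AP-1 motif, 55.6% the NFAT core and 7.02% the STAT motif.
Tnfrsf9, the second of its starts, chr4:150927749-150927998, plus strand: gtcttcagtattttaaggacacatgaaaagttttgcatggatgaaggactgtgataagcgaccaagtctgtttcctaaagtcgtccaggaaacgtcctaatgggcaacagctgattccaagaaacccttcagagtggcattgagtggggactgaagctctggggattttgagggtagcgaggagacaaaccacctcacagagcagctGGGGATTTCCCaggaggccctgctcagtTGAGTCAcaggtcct
Tnfrsf1b, chr4:145246871-145247120, minus strand: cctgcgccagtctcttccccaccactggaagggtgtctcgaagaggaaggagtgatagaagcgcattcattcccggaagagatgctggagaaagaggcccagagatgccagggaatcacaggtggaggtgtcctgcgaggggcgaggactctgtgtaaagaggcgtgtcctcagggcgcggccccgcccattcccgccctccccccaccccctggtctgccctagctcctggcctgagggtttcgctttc
Tnfrsf4, chr4:156013445-156013694, plus strand: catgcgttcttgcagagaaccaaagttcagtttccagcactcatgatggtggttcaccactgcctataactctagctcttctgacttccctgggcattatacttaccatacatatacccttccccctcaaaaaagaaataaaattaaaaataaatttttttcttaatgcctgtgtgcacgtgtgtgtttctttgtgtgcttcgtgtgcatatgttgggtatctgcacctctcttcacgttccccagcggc

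In the Tnfrsf9 window, 2 overlapping kappa-B matches began 43 and 42 bases before the start, and the AP-1 match began 15 bases before it. It also held 3 NFAT core matches and 1 STAT match. The Tnfrsf1b window held 1 STAT match and no NFAT core, and the Tnfrsf4 window 1 NFAT core and no STAT match. Neither the kappa-B nor the AP-1 motif was found in the Tnfrsf1b and Tnfrsf4 windows, in the window of the first Tnfrsf9 start, or in that of Tnfrsf18. The Tnfrsf4 window ends before the GENCODE start of Tnfrsf4 given above. Part of it lies within Sdf4, the gene on the same strand that ends 232 bases before that start. The second of the 2 Tnfrsf25 starts had 1 kappa-B match. The windows not shown held 1 or 2 NFAT cores, and those of Tnfrsf18 and the second Tnfrsf25 start 1 STAT match each. Counts from the 3′ end of transcripts do not show which start of Tnfrsf9 was used.

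The tables held 100673 cell barcodes, with 34497509 to 46960005 UMIs per library. The authors' kept list has 27420 of them, 2749 to 4725 per library, with a median of 2173 to 3524 UMIs per kept cell. Each kept cell has a Cd4 UMI. Clustering without the 7 members and their pathway genes put 20769 kept cells in T cell clusters, 1780 to 3753 per library, and these are called CD4 T cells here. All 9 T cell marker genes had counts in them in every library. Clusters 2 and 6 were Treg-like by Foxp3 and other markers, and were also summed as 1 Treg-like population. Cluster 1 was Th17-like, cluster 0 Th1-like, cluster 5 proliferating-like and cluster 8 naive or central memory-like, while T cell clusters 3 and 7 did not pass the naming rule. Cluster 3 was closest to the follicular helper list, but none of its leading genes was on that list. Haemoglobin genes were among them, with Hbb-bs at 164 CPM. Cluster 7 was closest to the Th1 list and next to the Th17 list. In the kept cells, 88 barcode sequences occurred in more than 1 library. The summed level of stress genes was 12540 to 13260 CPM in the untreated mutant libraries and 4784 to 7277 in the other 6.

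Among the CD4 T cell clusters, the members had different orders of level, which are described here without a test. Levels are CPM of all cells of a cluster in a library, given as the median of 8 libraries with the lowest and highest. By these medians, 5 of 7 members were highest in a Treg-like cluster. The naive or central memory-like cluster was the lowest for all 7 members.

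Tnfrsf4, a receptor induced on activated T cells, had its top level in Treg-like cluster 6 at 1262 CPM (761 to 1626) and the next in Treg-like cluster 2 at 787 (503 to 1101). Each of these steps held in 8 of 8 libraries. The proliferating-like cluster (564), cluster 3 (506), cluster 7 (453) and the Th1-like cluster (447) followed, with an order that did not hold throughout. The proliferating-like cluster lay above cluster 3 in 4 of 8 libraries and cluster 7 above the Th1-like cluster in 1 of 8, while cluster 3 lay above cluster 7 in 8 of 8. The Th17-like cluster was at 363 (199.9 to 553) and the naive or central memory-like cluster at 116 (89.2 to 191).

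Tnfrsf9, whose ligand is carried by activated antigen-presenting cells, was also highest in the Treg-like clusters. It was at 775 CPM (532 to 1116) in cluster 6 and at 429.8 (292 to 586) in cluster 2, the other Treg-like cluster. The proliferating-like cluster had 184, with a spread of 48.0 to 319 over the libraries, and cluster 7 had 112.4. The Th1-like cluster (85.7) had a slightly higher median than the Th17-like cluster (81.2) but was above it in only 1 of 8 libraries. Cluster 3 was at 54.9. In the naive or central memory-like cluster Tnfrsf9 had 1 to 8 UMIs per library and a median of 16.1 CPM (3.57 to 39.0).

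Tnfrsf18, a receptor long used as a Treg marker, was at 612 CPM (572 to 828) in cluster 6 and at 408 in cluster 2, again in that order in 8 of 8 libraries. Its other clusters lay closer together, from 307 in the Th1-like cluster down to 185 in the naive or central memory-like cluster. Tnfrsf1b, the TNF receptor without a death domain, was nearly level across cluster 6 (240.0), the Th1-like cluster (236) and cluster 2 (227). Cluster 6 exceeded the Th1-like cluster in 7 of 8 libraries, and the Th1-like cluster exceeded cluster 2 in only 2 of 8. The proliferating-like cluster had less Tnfrsf1b (112.5), and cluster 3 (78.5) and the naive or central memory-like cluster (53.0) still less.

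Tnfrsf25, the receptor of TL1A, was a sparse transcript with its highest median in the Th17-like cluster at 58.9 CPM (43.0 to 75.1). Treg-like cluster 6 was close to it at 54.3, and was exceeded in 5 of 8 libraries. Outside the CD4 T cells, the innate lymphoid-like cluster had a Tnfrsf25 median of 105 CPM (66.3 to 151).

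Icos was highest in Treg-like cluster 2 at 1402 CPM (1142 to 1543), above the Th17-like cluster (1201) in 8 of 8 libraries, and lowest in the naive or central memory-like cluster (208). Cd28 differed less between these clusters. Its median was 549.9 CPM (468 to 615) in the Th1-like cluster, 524 in the Th17-like cluster, 489.9 in cluster 2 and 379 (200.3 to 521) in cluster 6. The name of the cluster with the top level stayed the same for 7 of 7 members at a coarser clustering, and the cluster itself stayed the same for 6 of 7 when each cell was thinned to 1000 UMIs. Tnfrsf1b was then highest in Treg-like cluster 2.

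**Figure D1:**
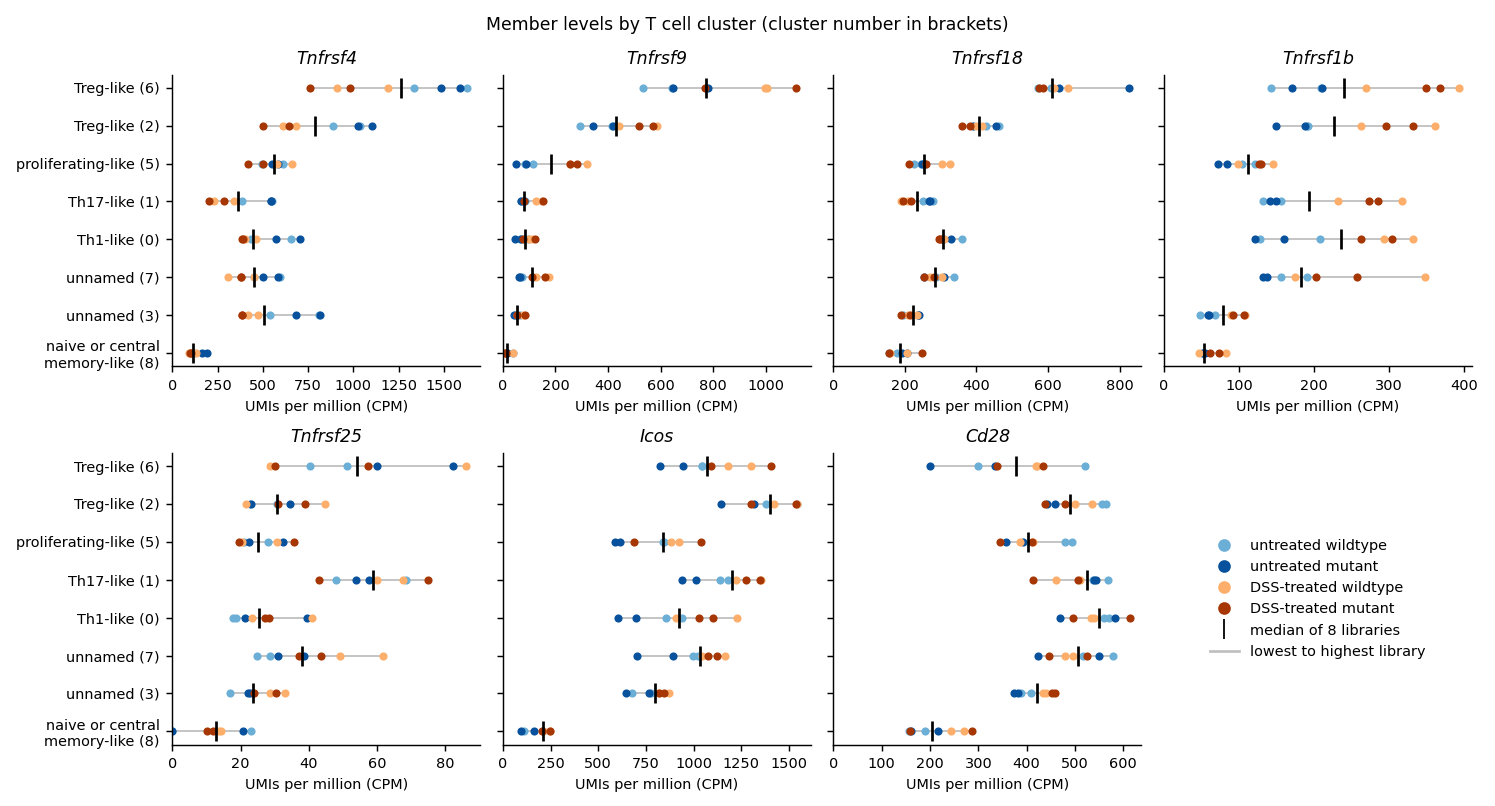
CPM of each member (horizontal axes) in the 8 CD4 T cell clusters (vertical axis), with 1 point per library coloured by group, a tick at the median and a line from the lowest to the highest library. Tnfrsf4, Tnfrsf9 and Tnfrsf18 are highest in Treg-like cluster 6 with medians of 1262, 775 and 612 CPM, and the naive or central memory-like cluster is lowest for all 7 members.

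The Treg-like population held 15.5% and 14.9% of the CD4 T cells in the untreated wildtype libraries, 14.3% and 11.3% in the untreated mutants, 28.1% and 28.2% in the DSS-treated wildtypes and 23.2% and 29.7% in the DSS-treated mutants. It carried a median of 55.2% (42.6% to 67.0%) of all Tnfrsf9 UMIs of the CD4 T cells. For Tnfrsf4 this share was 33.1% (16.9% to 42.8%), for Tnfrsf18 30.3% (17.4% to 43.1%), for Tnfrsf1b 25.5% (14.6% to 43.2%), for Icos 24.3% (14.4% to 38.1%), for Cd28 19.2% (8.89% to 32.1%) and for Tnfrsf25 17.9% (11.8% to 33.5%). The Th17-like cluster held a median of 29.0% of the Tnfrsf25 UMIs (12.3% to 54.3%).

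Cell-free RNA gives UMIs in barcodes of cells that do not express a gene. The members were therefore also counted in barcodes rich in fibroblast collagens, outside the kept cells. These barcodes were chosen to have no Cd4 UMI, while each kept cell has a Cd4 UMI. This choice can make their shares low for T cell genes. After thinning to 1000 UMIs per cell, a median of 33.0% of CD4 T cells had a Tnfrsf4 UMI against 2.49% of these barcodes, and 14.0% against 1.27% for Tnfrsf9. The pairs were 24.2% and 1.66% for Tnfrsf18, 17.3% and 3.75% for Tnfrsf1b, 2.96% and 0.195% for Tnfrsf25, 57.8% and 5.87% for Icos and 35.4% and 3.44% for Cd28. For 7 of 7 members the CD4 T cells of all 8 libraries lay above every value of these barcodes, and without thinning for 6 of 7. The kept cells of the fibroblast-like clusters, each with a Cd4 UMI, had higher shares, with medians of 13.2% for Tnfrsf4, 7.01% for Tnfrsf9, 7.03% for Tnfrsf18, 9.42% for Tnfrsf1b, 1.64% for Tnfrsf25, 27.8% for Icos and 13.8% for Cd28. Their highest shares of Tnfrsf9 (10.7%) and Tnfrsf1b (13.3%) exceeded the lowest of the CD4 T cells (8.12% and 10.65%), while the other 5 members did not overlap. Without thinning the CD4 T cell medians were 57.0% for Tnfrsf4, 26.3% for Tnfrsf9, 49.1% for Tnfrsf18, 36.4% for Tnfrsf1b, 9.24% for Tnfrsf25, 79.3% for Icos and 63.6% for Cd28. The fibroblast barcodes had a median of 4006 to 7142 UMIs each. In the naive or central memory-like cluster, the thinned shares of Tnfrsf9 (1.68%) and Tnfrsf1b (6.08%) were near this background, and no expression is read from them there.

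A second way to set Treg cells apart used Foxp3 alone: CD4 T cells with a Foxp3 UMI (146 to 961 per library) were compared with those without one in the same library, for 8 pairs. By edgeR with the library as a block, 5 of the 7 members passed an adjusted p of 0.05, where 36.3% of the 10029 tested genes did. Tnfrsf9, Tnfrsf4, Tnfrsf18 and Icos were higher and Cd28 was lower with a Foxp3 UMI. Cells with a Foxp3 UMI can have more UMIs than others, and Foxp3 is missed in part of the Treg cells.

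Tnfrsf9 was at a median of 453 CPM (276 to 643) with a Foxp3 UMI and 117 CPM (72.1 to 197) without one, so that the ranges did not overlap. It was higher in 8 of 8 libraries, with a change of 1.77 on the log2 scale (SE 0.06, 3.40-fold, edgeR adjusted p = 2.01e-16). Tnfrsf4 had medians of 875 and 456 CPM, and rose by 0.70 on the log2 scale (SE 0.05, 1.62-fold, edgeR adjusted p = 6.23e-11), in 8 of 8 libraries. Tnfrsf18 had medians of 431 CPM (386 to 449) and 274 CPM (241 to 283), again without overlap, and a change of 0.55 on the log2 scale (SE 0.04, edgeR adjusted p = 3.29e-10) in 8 of 8 libraries.

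For the CD28 family, Icos was slightly higher with a Foxp3 UMI (log2 fold change 0.22, SE 0.04, edgeR adjusted p = 8.4e-05, 8 of 8 libraries), and Cd28 fell by 0.21 (SE 0.05, edgeR adjusted p = 0.000753), being higher in 1 of 8 libraries. Tnfrsf1b did not pass, with a log2 difference of 0.13 (SE 0.06, edgeR adjusted p = 0.0822, higher in 7 of 8 libraries). It passed after thinning (0.31, adjusted p = 0.0041) and without DSS-treated wildtype replicate 1 (0.17, adjusted p = 0.037). Tnfrsf25 had a difference of -0.17 (SE 0.09, edgeR adjusted p = 0.161), and of 0.19 after thinning (adjusted p = 0.60).

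**Figure D2:**
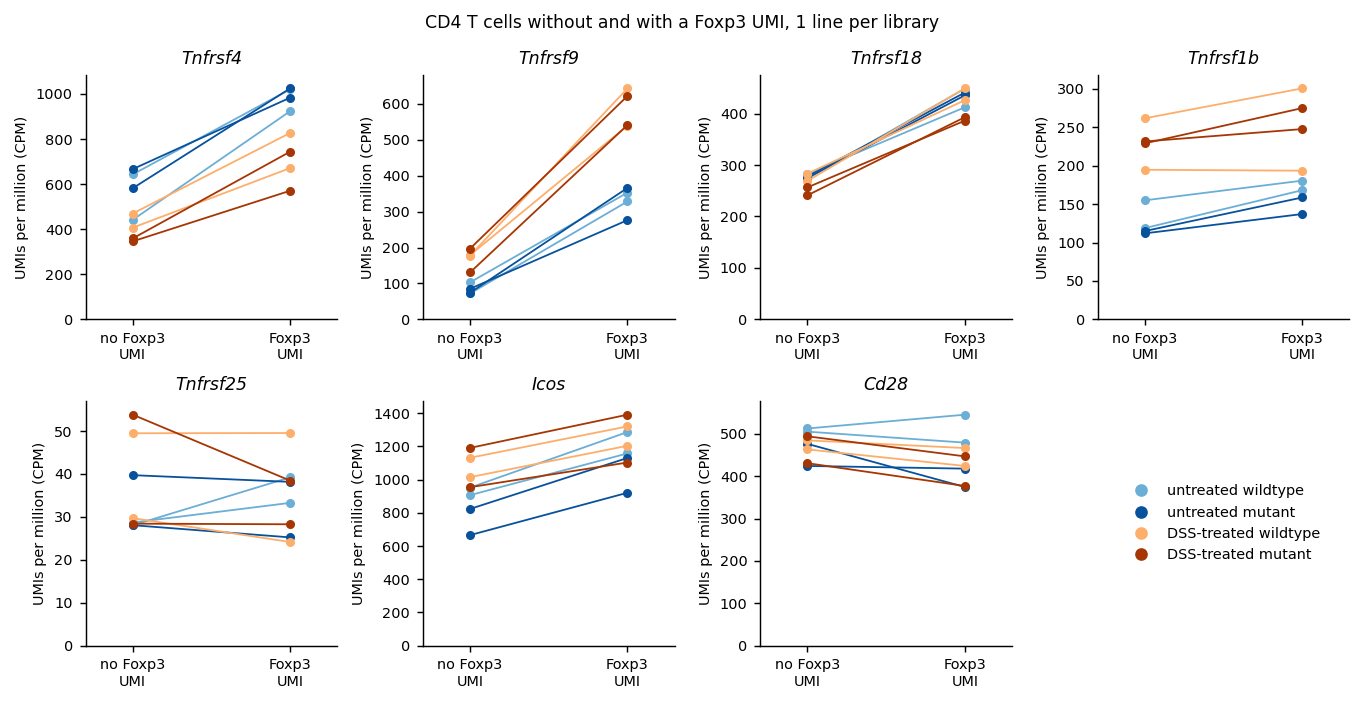
CPM of each member in CD4 T cells without and with a Foxp3 UMI (horizontal axis), with the 2 values of each of the 8 libraries joined by a line coloured by group. All 8 lines rise for Tnfrsf9, Tnfrsf4, Tnfrsf18 and Icos, and 1 of 8 rises for Cd28.

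Lists of the members' pathway genes were counted in the same comparison, where 36.3% of all tested genes passed and their median log2 difference was 0.00. Of 9 tested other TNF receptors and CD28 family receptors, 4 were higher and 3 lower with a Foxp3 UMI (median 0.33). Tnfrsf8 (CD30) was higher by 2.23 on the log2 scale (edgeR adjusted p = 2.15e-10), Cd27 by 0.94, Tnfrsf10b, a death receptor, by 0.88 and the inhibitory receptor Ctla4 by 0.54, while Btla fell by 0.82 and Fas by 0.43. Of 14 adaptors of the TNF receptors 3 were higher and 3 lower (median 0.01): Traf2 at 0.31, Traf3 at 0.23, Traf1 at 0.19, Traf4 and Traf6 at -0.24 each and Map3k14, the NF-kB-inducing kinase, at -0.82. The count of adaptors is near the share of all genes, so nothing is read from it. Of 16 NF-kB subunits, inhibitors and survival targets 1 was higher and 7 were lower (median -0.13), the survival genes Bcl2 at -1.48, Bcl2a1d at -0.85 and Bcl2a1b at -0.61 among them. Of 14 signal carriers of CD28 and ICOS 3 were higher and 9 lower (median -0.23), such as the kinase Prkcq (-0.58). Of 6 tested ligands Cd80 was higher (0.95) and Tnf (-0.83) and Lta (-0.84) were lower (median -0.49).

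Over the 64 sums of a library and a cluster, the genes whose log2(CPM + 1), less each library's mean, followed each member most closely were found among 6953 genes. This is a description without a test, since sums of 1 library share their depth and sums of 1 cluster their cells. For Tnfrsf4 they were Sdf4 (Pearson r = 0.93), Tmbim1 (0.91) and Itgav (0.91). Sdf4 lies 232 bases upstream of Tnfrsf4 on the same strand and was counted at 364 CPM in CD4 T cells. For Tnfrsf9 they were Mmd (0.94), Syngr2 (0.93) and Wls (0.92), and for Tnfrsf18 Klrg1 (0.88), Gpr55 (0.88) and Itm2c (0.87). Tnfrsf1b was followed by Nr3c1 (0.93), H2-D1 (0.92) and Camk2n1 (0.92), and Tnfrsf25 by Atxn1 (0.83), Zeb2 (0.83) and Lilr4b (0.82). Icos was followed by Osbpl3, Rora and Fnbp1 (0.96 each), and Cd28 by Cd6 (0.89), Maf (0.88) and Aebp2 (0.87). Among the members, the closest pairs were Tnfrsf4 with Tnfrsf9 (0.88) and Tnfrsf9 with Tnfrsf18 (0.86), and the least alike were Cd28 and Tnfrsf18 (0.27).

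With DSS, CD4 T cells as a whole had more Tnfrsf9 and Tnfrsf1b and less Tnfrsf4. Over both genotypes (4 untreated against 4 DSS libraries), these 3 of 7 members passed the edgeR test, where 18.3% of the 11042 tested genes passed. The median log2 fold change was 0.23 over the 7 members and 0.01 over all tested genes. A difference in the summed CD4 T cells can come from their subsets' shares or from the level per cell, and the 2 cannot be told apart in such a sum. In the sentences that follow, each gene has its 2 untreated wildtype libraries first, then the 2 untreated mutants, then the wildtypes with DSS and last the mutants with DSS.

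Tnfrsf9 was at 143 and 107, 111 and 99.6, 288 and 310.4, and 295 and 278 CPM. Every DSS library lay above every untreated library, and the 4 DSS libraries were close to each other (293 ± 13.5 against 115 ± 19.1 CPM, SD, n = 4 each). The log2 change was 1.28 (SE 0.10, 2.43-fold, edgeR adjusted p = 0.000453), and an exact permutation test of the log2 CPM gave p = 0.0286, the smallest that 4 against 4 libraries allow.

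Tnfrsf1b was at 159 and 125, 121 and 114, 194 and 273, and 235 and 245 CPM. Here too all DSS libraries were above all untreated ones, with a wider spread (237 ± 32.5 against 129.8 ± 19.97 CPM). The log2 fold change was 0.80 (SE 0.11, 1.74-fold, edgeR adjusted p = 0.00482, exact permutation p = 0.0286).

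Tnfrsf4 was at 518 and 694, 641 and 694, 578 and 482, and 448 and 427 CPM. Its groups overlapped, since untreated wildtype replicate 1 lay below DSS-treated wildtype replicate 1. Tnfrsf4 fell by 0.48 on the log2 scale (SE 0.11, edgeR adjusted p = 0.0196), with an exact permutation p of 0.0571. The call did not hold if untreated wildtype replicate 2 was left out (-0.36, adjusted p = 0.0964), nor without untreated mutant replicate 2 (-0.44, 0.0766) or DSS-treated wildtype replicate 2 (-0.40, 0.0824).

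Icos was at 947 and 998, 701 and 851, 1073 and 1186, and 1238 and 1008 CPM, with all DSS libraries above the untreated ones. Its log2 difference of 0.30 (SE 0.10) did not pass (edgeR adjusted p = 0.0644), but it passed with DESeq2 (adjusted p = 0.0456), without a filter on low counts (0.0109), with the subsets' shares held fixed (0.0216) and without DSS-treated mutant replicate 2 (0.0368). An exact permutation test gave an unadjusted p of 0.0286. In all, 3 members (Tnfrsf9, Tnfrsf1b and Icos) had treatment groups that did not overlap, where 25.7% of all tested genes had this. Tnfrsf18 ranged from 276 to 324 CPM over the 8 libraries (log2 difference -0.03, SE 0.07, edgeR adjusted p = 0.77), Cd28 from 412 to 518 (-0.14, SE 0.09, adjusted p = 0.273) and Tnfrsf25 from 27.7 to 50.3 (0.23, SE 0.22, adjusted p = 0.488).

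**Figure D3:**
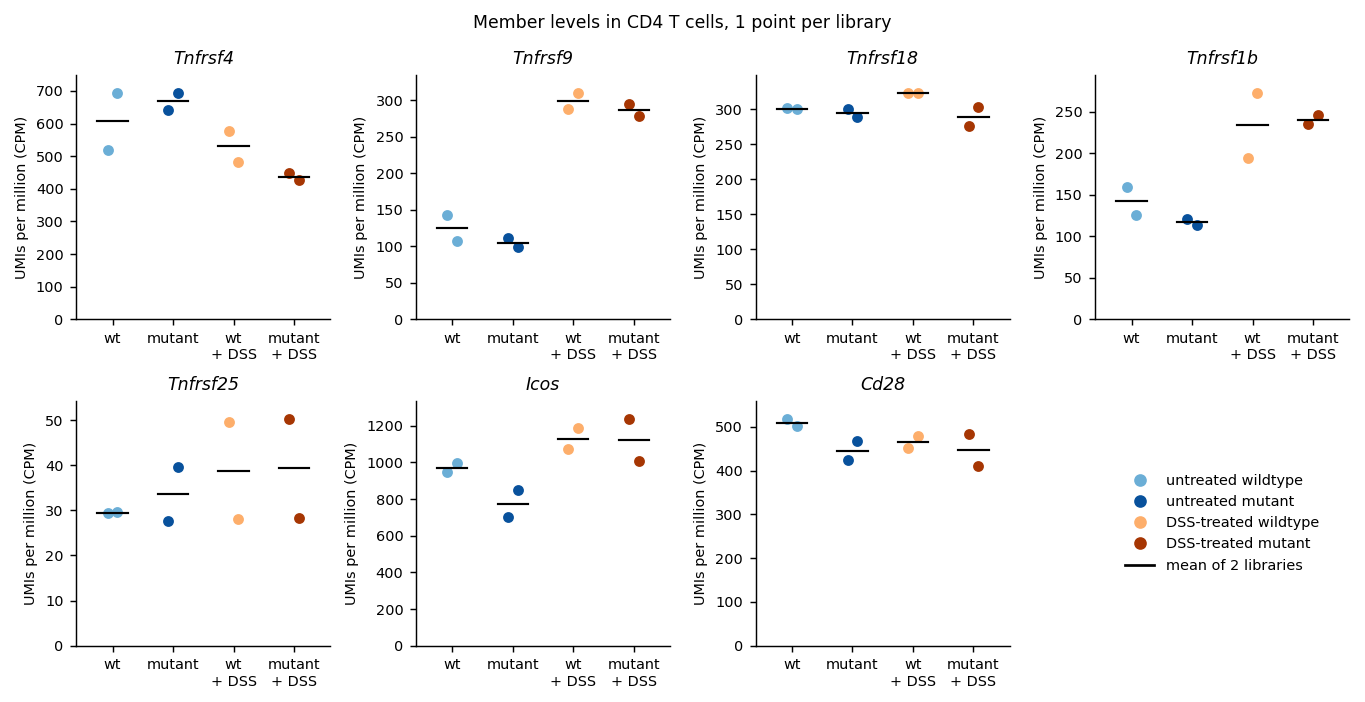
CPM of each member in all CD4 T cells (vertical axes) by group (horizontal axis), with 1 point per library and a line at the mean of the 2. The DSS-treated libraries have 278 to 310.4 CPM of Tnfrsf9 against 99.6 to 143 in the untreated ones, and Tnfrsf18 stays between 276 and 324 CPM.

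The subsets were then compared 1 by 1, each within its own cells. Tnfrsf1b rose in the Treg-like, Th17-like and Th1-like cells, and Tnfrsf4 fell in each of them. Tnfrsf9 rose in the Treg-like and Th17-like cells.

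In Treg-like cells, 3 of 7 members passed the test over both genotypes, where 9.39% of the tested genes passed. Tnfrsf4 was at 990.3 and 1193, 1202 and 1172, 853 and 681, and 733 and 577 CPM, with all DSS libraries below all untreated ones. It fell by 0.72 on the log2 scale (SE 0.11, edgeR adjusted p = 0.00194). Tnfrsf1b was at 196 and 178, 184 and 166, 264 and 369, and 309 and 343 CPM, with a change of 0.79 on the log2 scale (SE 0.12, edgeR adjusted p = 0.0013). Both DSS groups were above both untreated groups. Tnfrsf9 was at 443 and 385, 423 and 511, 627 and 686, and 710.4 and 590.2 CPM, a change of 0.54 on the log2 scale (SE 0.11, 1.45-fold, edgeR adjusted p = 0.00658). The treatment groups did not overlap for these 3 members, where 18% of all tested genes had this. Leaving out untreated wildtype replicate 2 ended the Tnfrsf9 call (0.50, adjusted p = 0.0547). The make-up of the Treg-like population moved with treatment too: cluster 6 held 2.44% to 3.49% of CD4 T cells in untreated and 6.61% to 9.86% in DSS libraries, cluster 2 held 8.86% to 12.2% and 16.6% to 20.7%, and 43.6% to 49.8% and 55.7% to 69.0% of Treg-like cells had a Foxp3 UMI. The part of the Foxp3 share in these changes was not tested. Tnfrsf18, Icos, Cd28 and Tnfrsf25 did not pass in Treg-like cells, with log2 differences of -0.16, 0.13, -0.02 and 0.11.

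In Th17-like cells, 4 of 7 members passed, where 8.35% of the tested genes did. Tnfrsf4 was at 384 and 553, 547 and 546, 342 and 228, and 283 and 199.9 CPM, and fell by 0.98 on the log2 scale (SE 0.15, 1.97-fold lower, edgeR adjusted p = 0.000973). Its means were 508 ± 82.3 CPM untreated and 263 ± 63.0 CPM with DSS (SD, n = 4 each), without overlap. Tnfrsf1b was at 156 and 132, 141 and 149, 232 and 318, and 273 and 285 CPM (log2 fold change 0.89, SE 0.13, edgeR adjusted p = 0.000586). The lowest DSS library was above the highest untreated one. Tnfrsf9 was at 82.3 and 69.9, 78.8 and 70.4, 149 and 126, and 152 and 80.1 CPM, a change of 0.74 on the log2 scale (SE 0.17, edgeR adjusted p = 0.0119). One DSS-treated mutant library thus overlapped the untreated range, and leaving out untreated wildtype replicate 2 (0.69, adjusted p = 0.108), untreated mutant replicate 2 (0.70, 0.0816) or DSS-treated mutant replicate 1 (0.47, 0.0502) ended the call. The thinned share of Th17-like cells with a Tnfrsf9 UMI, 5.49% to 12.3%, overlapped that of the kept fibroblast-like cells (2.60% to 10.7%).

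Tnfrsf18 fell by 0.44 on the log2 scale in Th17-like cells (SE 0.11, edgeR adjusted p = 0.0208), from 251 to 279 CPM in the untreated libraries to 190.1 to 217 with DSS. This call was lost when any of 5 of the 8 libraries was left out (both untreated mutants, untreated wildtype replicate 2, DSS-treated wildtype replicate 2 and DSS-treated mutant replicate 2), with an adjusted p of up to 0.125. Icos and Cd28 did not pass (log2 differences 0.24 and -0.25, edgeR adjusted p = 0.119 and 0.145), although their treatment groups did not overlap. With Tnfrsf4, Tnfrsf18 and Tnfrsf1b this made 5 members without overlap, where 16.3% of all tested genes had this. Tnfrsf25 was at 68.6 and 48.0, 53.9 and 57.8, 67.6 and 60.1, and 75.1 and 43.0 CPM, with full overlap.

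In Th1-like cells, 3 of 7 members passed, where 14.7% of the tested genes did. Tnfrsf1b was at 209 and 128, 160.0 and 121, 294 and 332, and 263 and 305 CPM (log2 fold change 0.88, SE 0.14, edgeR adjusted p = 0.000863). It was the only member there whose treatment groups did not overlap, where 18.6% of all tested genes had this. The thinned share of Th1-like cells with a Tnfrsf1b UMI, 10.8% to 28.25%, began below the highest share of the kept fibroblast-like cells. That with a Tnfrsf9 UMI, 4.36% to 10.2%, lay within the range of the kept fibroblast-like cells. Tnfrsf4 fell by 0.61 (SE 0.14, edgeR adjusted p = 0.0086), and lost its call without untreated wildtype replicate 2 (-0.44, adjusted p = 0.0732) or DSS-treated wildtype replicate 2 (-0.54, 0.0536). Icos was at 855 and 939, 603 and 699, 907 and 1229.9, and 1027 and 1100.1 CPM (log2 fold change 0.40, SE 0.12, edgeR adjusted p = 0.0291), and its call was lost when any of 5 libraries was left out (both untreated wildtypes, untreated mutant replicate 1, DSS-treated wildtype replicate 2 and DSS-treated mutant replicate 2), with an adjusted p of up to 0.170. Tnfrsf9 did not pass in Th1-like cells (0.48, SE 0.17, edgeR adjusted p = 0.0652) or under 4 of 6 alternatives with no library left out, and passed under the others. It passed without untreated wildtype replicate 1 (0.64, adjusted p = 0.041) or DSS-treated mutant replicate 2 (0.68, 0.0251).

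In Treg-like clusters 2 and 6 taken alone and in cluster 7, Tnfrsf4 fell and Tnfrsf9 and Tnfrsf1b rose, which is 3 members in each, where 9.27%, 3.96% and 3.64% of the tested genes passed. Tnfrsf9 rose by 0.51 in cluster 2, 0.56 in cluster 6 and 0.89 in cluster 7 on the log2 scale. In cluster 3, Tnfrsf1b rose by 0.73 and Tnfrsf4 fell by 0.80, 2 members where 7.13% of genes passed. The thinned share of cells with a Tnfrsf1b UMI in cluster 3 (4.44% to 11.3%) overlapped that of the fibroblast-rich barcodes (2.37% to 8.66%), whose Tnfrsf1b level was also higher with DSS, so no change in expression is read from Tnfrsf1b there. In cluster 7 the lowest share (7.95% to 27.3%) lay within that range too. In the naive or central memory-like cluster 0 of the 5 tested members passed, where 5.8% of genes did, and Tnfrsf9 and Tnfrsf25 were too low to be tested.

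**Figure D4:**
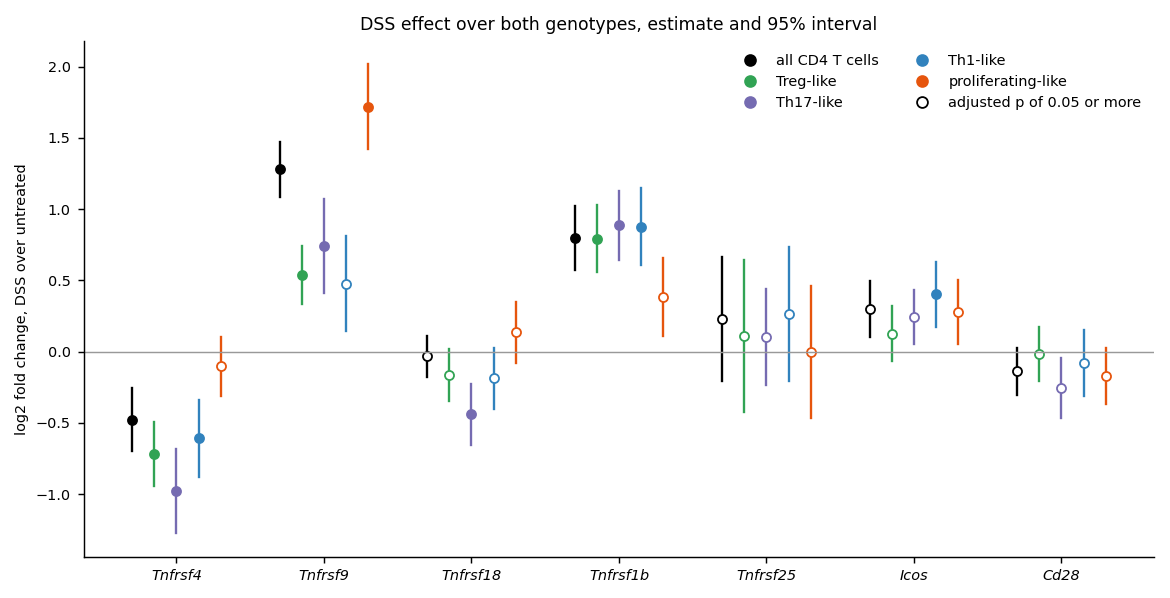
Log2 fold change with DSS over both genotypes (vertical axis) for each member (horizontal axis) in all CD4 T cells and in 4 subsets (colours), with bars for the 95% interval. Filled points passed an edgeR adjusted p of 0.05. Tnfrsf1b lies above 0 and Tnfrsf4 below 0 in Treg-like, Th17-like and Th1-like cells, and the highest point of all is Tnfrsf9 in the proliferating-like cluster at 1.72.

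In the proliferating-like cluster (1532 cells, with a median of 6395 UMIs), Tnfrsf9 was the only one of 7 members to pass, where 10.2% of the tested genes did. It was at 113 and 83.0, 86.6 and 48.0, 257 and 319, and 255 and 283 CPM. All DSS libraries were above all untreated ones (278 ± 29.7 against 82.7 ± 26.9 CPM, SD, n = 4 each), and Tnfrsf9 was the only member without overlap, where 15.9% of all tested genes had this. Both counts are near the shares of all genes, so nothing is read from them. The log2 fold change was 1.72 (SE 0.15, 3.29-fold, edgeR adjusted p = 6.54e-06).

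The share of proliferating-like cells with a Foxp3 UMI moved with treatment, at 15.98% and 15.1% in the untreated wildtypes, 13.8% and 8.43% in the untreated mutants, 42.5% and 43.8% in the DSS-treated wildtypes and 29.2% and 41.7% in the DSS-treated mutants. Tnfrsf9 was therefore also tested in those without a Foxp3 UMI (76 to 187 per library), as an alternative chosen after seeing the data. There it was at 67.9 and 34.1, 78.1 and 36.0, 125 and 169, and 157 and 151 CPM, again without overlap, where 11% of all tested genes had this. The thinned share of these cells with a Tnfrsf9 UMI was 1.32% to 12.5%. It overlapped that of the fibroblast-rich barcodes (0.443% to 3.30%) and that of the kept fibroblast-like cells (2.60% to 10.7%). The kept fibroblast-like cells had 29.3 to 66.5 CPM of Tnfrsf9 untreated and 82.4 to 157.9 CPM with DSS. In the proliferating-like cells without a Foxp3 UMI the log2 fold change was 1.46 (SE 0.21, 2.75-fold, edgeR adjusted p = 0.00134), where 2.93% of the tested genes passed. The part of free RNA in this change was not tested. In those with a Foxp3 UMI, of which there were 7 to 134 per library, Tnfrsf9 was at 275 and 305, 125 and 162, 384 and 473, and 425 and 427 CPM. Doublets were not removed from this cluster, and their part in its values was not tested.

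Tnfrsf4 and Tnfrsf1b did not pass in the proliferating-like cluster. Tnfrsf4 was at 497 and 610.4, 582 and 550.3, 659 and 577, and 501 and 416 CPM (log2 difference -0.10, edgeR adjusted p = 0.58). Tnfrsf1b was at 121 and 104, 71.6 and 84.0, 98.6 and 145, and 129.7 and 126 CPM (0.39, SE 0.14, adjusted p = 0.0864), and the lowest of its thinned shares (3.61% to 13.5%) lay within the fibroblast range. The treatment groups overlapped for both.

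**Figure D5:**
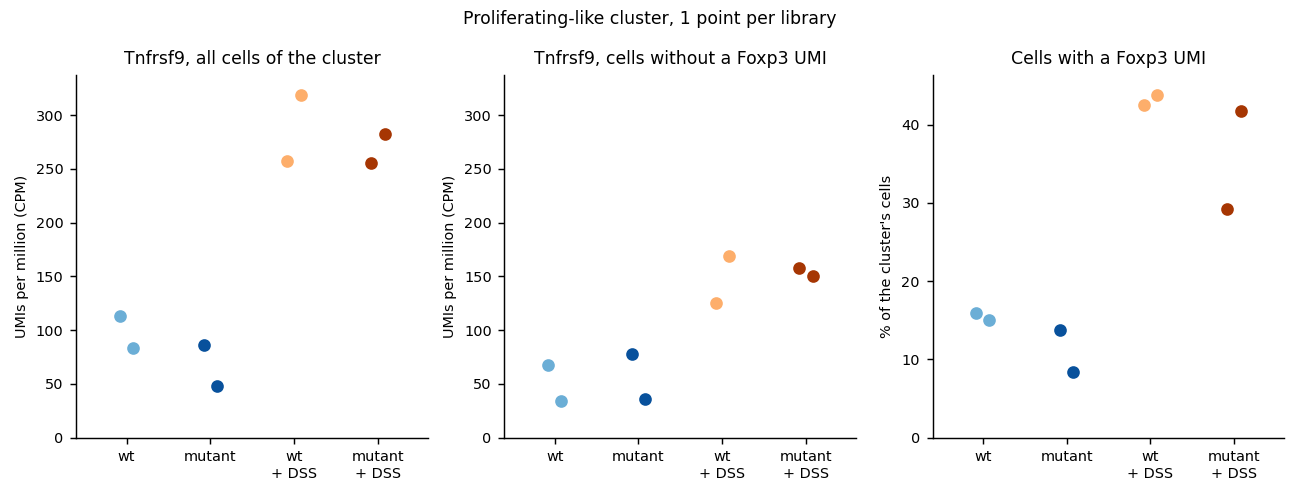
The proliferating-like cluster by group (horizontal axes), with 1 point per library: CPM of Tnfrsf9 in all its cells (left), CPM of Tnfrsf9 in its cells without a Foxp3 UMI (middle) and the percentage of its cells with a Foxp3 UMI (right). The DSS-treated libraries lie above the untreated ones in each panel, at 255 to 319 against 48.0 to 113 CPM, 125 to 169 against 34.1 to 78.1 CPM, and 29.2% to 43.8% against 8.43% to 15.98%.

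Whether DSS effects differed between subsets was tested as a difference of log2 fold changes in 1 edgeR model with the library as a block, also chosen after seeing the data. The proliferating-like cluster was compared with Treg-like, Th17-like and Th1-like cells, and not with clusters 3, 7 and 8. Against Treg-like cells, the proliferating-like cluster had a larger effect on Tnfrsf9 by 1.13 (edgeR adjusted p = 5.66e-07) and one on Tnfrsf4 that was higher by 0.62 (adjusted p = 7.62e-06), 2 of 7 members where 2.23% of genes passed. Against Th17-like cells, 4 of 7 members passed where 4.92% of genes did, with differences of 0.96 for Tnfrsf9, 0.85 for Tnfrsf4, 0.53 for Tnfrsf18 and -0.59 for Tnfrsf1b. Against Th1-like cells, 3 of 7 passed where 7.76% of genes did, at 1.28 for Tnfrsf9, 0.48 for Tnfrsf4 and -0.52 for Tnfrsf1b. The Tnfrsf9 differences passed without any 1 of the 8 libraries. An exact permutation test over 4 against 4 libraries was run for 28 differences, those against Treg-like and Th17-like cells among them but not those against Th1-like cells. The smallest p this test can give, 0.0286, was reached by 8 of the 28, Tnfrsf9 and Tnfrsf4 in the proliferating-like cluster against both populations among them. Their adjusted p was 0.1. Since an adjusted p under 0.05 would have needed more of the 28 at that smallest p, the test says little about any 1 difference. Between Th17-like and Treg-like cells and between Th1-like and Treg-like cells, 0 of 7 members differed in their DSS effect by edgeR, where 1.47% and 2.42% of genes did.

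With the subsets' shares of cells held fixed, Tnfrsf9 rose by 0.64 over all CD4 T cells as a difference of log2(CPM + 1) (limma adjusted p = 0.00248). Without fixed shares the difference on that scale was 1.35. Tnfrsf4 fell by 0.65 with fixed shares (limma adjusted p = 0.00267), against -0.40 without, Tnfrsf1b rose by 0.85 (adjusted p = 0.000974), against 0.86, and Icos by 0.29 (adjusted p = 0.0216), against 0.37. The fixed shares weight each subset by its cells and the plain sums by its UMIs, so the 2 values differ in that as well. In CD4 T cells without a Foxp3 UMI, Tnfrsf9 was at 103 and 72.1, 85.1 and 74.1, 179 and 178, and 197 and 131 CPM, a change of 0.98 on the log2 scale (SE 0.15, edgeR adjusted p = 0.00867). Tnfrsf1b rose by 0.83 and Tnfrsf4 fell by 0.62 there, where 13.8% of the tested genes passed. In the fibroblast-rich barcodes, which should lack these genes, the median Tnfrsf9 level was 9.90 CPM in untreated and 18.9 CPM in DSS libraries, and that of Tnfrsf1b 35.2 and 63.2 CPM. In 2 kinds of kept cells outside the T cell clusters, Tnfrsf9 and Tnfrsf1b were higher with DSS as well, without overlap. The share of all genes without overlap was not counted in these cells, so nothing is read from the lack of overlap. In the fibroblast-like clusters Tnfrsf9 was at 29.3 to 66.5 CPM untreated and 82.4 to 157.9 CPM with DSS, and in the macrophage or monocyte-like cluster at 15.4 to 22.7 and 57.0 to 93.2 CPM. As differences of log2(CPM + 1), these were 1.22 and 1.94, against 1.35 in the CD4 T cells. Tnfrsf1b, which macrophages are known to express, was at 62.1 to 77.9 and 106.7 to 139.7 CPM in the fibroblast-like clusters (0.75) and at 114 to 184 and 268 to 408 CPM in the macrophage or monocyte-like cluster (1.076), against 0.86 in the CD4 T cells. For Tnfrsf4 the treatment groups overlapped in both, with differences of -0.14 and 0.49. The part of free RNA in the members' changes was not tested.

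Summed marker lists were also read in the CD4 T cells. The list of general T cell markers fell without overlap, from 4369 to 4947 CPM in untreated to 3617 to 4221 CPM in DSS libraries, with none of its 9 genes at 0, and its part in the members' changes was not tested. The innate lymphoid list had 506.9 to 772 CPM in untreated and 834 to 1315 CPM in DSS libraries, with at most 1 of its 8 genes at 0 in a library. The dendritic list had 122 to 143 and 153 to 241.6 CPM, with at most 3 of 8 genes at 0, and the neutrophil list 0.457 to 1.28 and 3.48 to 11.9 CPM, with at most 4 of 5 genes at 0. Without the barcodes that held 3 or more UMIs of macrophage, neutrophil, B cell, plasma cell, fibroblast, endothelial or epithelial markers, an alternative chosen after seeing the data, the log2 change with DSS in CD4 T cells was 1.28 for Tnfrsf9, 0.85 for Tnfrsf1b and -0.48 for Tnfrsf4. The part of innate lymphoid and dendritic cells in the members' changes was not tested.

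Taken by genotype, with 2 libraries against 2, Tnfrsf9 was the only member to pass in wildtype CD4 T cells (log2 fold change 1.196, SE 0.14, edgeR adjusted p = 0.0079), where 0.199% of the tested genes passed. In wildtype Treg-like, Th17-like and Th1-like cells 0 of 7 members passed by edgeR, where 0.278%, 0.0384% and 0.618% of genes did. DESeq2 called 2, 1 and 1 members in these, where it called 54 of 8271, 19 of 7817 and 48 of 7767 tested genes. In mutant CD4 T cells 3 members passed, where 5.27% of genes did: Tnfrsf9 rose by 1.36 (edgeR adjusted p = 0.00676), Tnfrsf1b rose by 0.95 (0.0226) and Tnfrsf4 fell by 0.69 (0.0414). The summed stress-gene level of the CD4 T cells moved with DSS in mutants, from 12540 to 13260 CPM untreated to 5900 to 5976 CPM with DSS, while in wildtypes the ranges overlapped (4784 to 7277 and 5272 to 6400 CPM). Its part in the mutants' changes, and in those over both genotypes, was not tested. A call in 1 genotype and not in the other does not show that their effects differ, and the test of that difference called 0 members.

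In mutant Treg-like cells 2 members passed, where 1.9% of genes did, Tnfrsf4 falling by 0.89 (edgeR adjusted p = 0.0117) and Tnfrsf1b rising by 0.87 (0.0182). In mutant Th17-like cells the same 2 passed, where 4.26% of genes did, at -1.22 (edgeR adjusted p = 0.00406) and 0.89 (0.00798). In mutant Th1-like cells 3 passed, where 6.51% of genes did, with Tnfrsf1b at 0.92, Tnfrsf4 at -0.83 and Icos at 0.61. In the proliferating-like cluster Tnfrsf9 passed in wildtype (1.503, edgeR adjusted p = 0.00132) and in mutant cells (1.93, adjusted p = 0.000285), 1 of 7 members in each, where 2.75% and 1.8% of genes did. An exact permutation test of 2 against 2 libraries cannot go below p = 0.333.

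No member differed between mutant and wildtype by edgeR. This held untreated, after DSS and for the difference between the genotypes' DSS effects, in CD4 T cells, in Treg-like, Th17-like and Th1-like cells and in the proliferating-like cluster, and 0 of 7 members passed in each of these 15 tests. Of all tested genes, 0% to 0.205% passed: 0.205% in untreated Th17-like cells, 0.0644% in untreated Th1-like cells, 0.0373% in the untreated proliferating-like cluster, 0.0128% for the difference of DSS effects in Th17-like cells, and 0% in the rest. At an unadjusted threshold of 0.05, edgeR would have called Icos lower in untreated mutant CD4 T cells, Th1-like cells and Th17-like cells, and Cd28 lower in untreated mutant Treg-like cells. In the proliferating-like cluster it would have called Icos, Cd28 and Tnfrsf1b lower in untreated mutants, and Tnfrsf4 and Tnfrsf18 lower in mutants after DSS. The smallest edgeR adjusted p of any member in CD4 T cells was 0.927 untreated and 0.997 for the difference of DSS effects. DESeq2 called 0 members in CD4 T cells in these 3 comparisons.

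The intervals show what size of difference these 2 libraries per group leave possible. In untreated CD4 T cells, the mutant minus wildtype log2 difference was -0.32 for Icos (95% interval -0.60 to -0.04), -0.19 for Cd28 (-0.43 to 0.05), -0.24 for Tnfrsf9 (-0.52 to 0.03) and 0.14 for Tnfrsf4 (-0.17 to 0.45). After DSS it was -0.29 for Tnfrsf4 (-0.60 to 0.01) and -0.08 for Tnfrsf9 (-0.34 to 0.19). The DSS effect in mutants minus that in wildtypes was -0.44 for Tnfrsf4 (-0.87 to 0.00) and 0.17 for Tnfrsf9 (-0.21 to 0.55). The summed stress-gene level of the untreated mutant libraries (12540 to 13260 CPM, against 4784 to 7277 in the other 6) moved with each of the untreated comparisons and with the difference of DSS effects, and its part in them was not tested.

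The same lists were counted for DSS over both genotypes. In CD4 T cells, 4 of 11 other receptors of these families rose and 1 fell (median log2 fold change 0.40, against 0.01 for all genes, of which 18.3% passed). Tnfrsf8 rose by 1.34 (edgeR adjusted p = 0.0118), Tnfrsf10b by 1.02 (0.0068), Cd27 by 0.50 and Ctla4 by 0.40, and Fas fell by 0.63. Of the 7 tested ligands, Tnfsf9, the ligand of Tnfrsf9, rose by 0.95 (edgeR adjusted p = 0.0208), and the median was -0.38. Of 14 adaptors 4 rose and 1 fell (median 0.03): the ubiquitin ligases Birc2 (0.41) and Birc3 (0.35), the kinase Map3k7 (0.35) and its partner Tab2 (0.38) rose, and Traf1 fell by 0.51. Of 16 NF-kB genes 2 rose and 1 fell (median -0.21): Bcl3 (0.45) and Tnfaip3 (0.39), an inhibitor of NF-kB, rose and Bcl2a1b fell by 0.57. Of 14 signal carriers 1 rose and 1 fell (median 0.06), and the one that rose was the kinase Akt1 (0.33). The counts of ligands, NF-kB genes and signal carriers are near or below the share of all genes, so nothing is read from them.

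Within subsets the lists gave fewer or other calls. In Treg-like cells, Tnfrsf10b rose by 1.11 among 8 tested receptors, Tab2 and Birc2 rose and Traf1 fell among 14 adaptors, Prkcq rose by 0.59 among 14 signal carriers, and Tnfaip3 was the only 1 of 16 NF-kB genes to pass (0.46, edgeR adjusted p = 0.0113). There 9.39% of all tested genes passed, and the counts of NF-kB genes and signal carriers are below that share. In Th17-like cells, where 8.35% of genes passed, Tnfsf9 rose by 1.79 among 4 tested ligands (edgeR adjusted p = 0.0112). Fas fell by 0.96 among 6 tested receptors. Of 14 adaptors Traf1 and Traf5 fell by 0.88 and 0.90 and Birc2 (0.44) rose, and of 14 signal carriers Pik3r1 (0.51) and Grap2 (0.53) rose. Of the 16 NF-kB genes there, Bcl2 (1.04) and Tnfaip3 (0.61) rose and Bcl2a1d, Bcl2a1b and Nfkbib fell. In Th1-like cells, where 14.7% of genes passed, Tnfsf9 rose by 1.16 among 3 tested ligands. Of 7 tested receptors Ctla4 (0.49) and Cd27 (0.48) rose and Fas fell by 0.64, and of 14 adaptors Birc3 (0.77), Birc2 (0.49) and Tab2 (0.42) rose and Traf1 fell by 0.72. Of 16 NF-kB genes Bcl2 (0.91), Tnfaip3 (0.66) and Bcl3 (0.63) rose and Bcl2a1d fell by 0.56, and of 14 signal carriers Malt1 (0.70) rose. The count of signal carriers is below the share of all genes in Th1-like cells, so nothing is read from it. Traf1 thus fell and Birc2 and Tnfaip3 rose in each of these 3 subsets. In the mutant comparisons and the difference of DSS effects, 0 genes of these lists passed by edgeR.

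By level (CPM summed over libraries), the members' ligands were highest in clusters outside the CD4 T cells. By number, the CD4 T cells, with the most cells, held more UMIs than the top cluster for Tnf (1396 against 1186), Tnfsf9 (731 against 237), Tnfsf4 (147 against 72), Lta (291 against 61) and Tnfsf18 (13 against 5). The cluster with the highest level was the innate lymphoid-like cluster for Tnfsf4, the ligand of Tnfrsf4 (37.9 CPM, 72 UMIs), and an unnamed S100a8-led cluster for Tnfsf9, the ligand of Tnfrsf9 (44.4 CPM). This unnamed cluster matched both the neutrophil and the dendritic list, with Ccl22, Ccl17 and Il12b also among its leading genes. Which of its cells held the ligands was not tested. Tnf, a ligand of Tnfrsf1b, was highest in the macrophage or monocyte-like cluster (80.1 CPM, against 21.3 in CD4 T cells), and Lta in the innate lymphoid-like cluster (32.1 CPM, against 4.44). Tnfsf15, the ligand of Tnfrsf25, reached 22.0 CPM in the macrophage or monocyte-like cluster (325 UMIs) and 24.3 CPM in cluster 17, from 21 UMIs. Icosl was highest in fibroblast-like cluster 10 (55.1 CPM), Cd80 in the S100a8-led cluster (62.2 CPM) and Cd86 in the macrophage or monocyte-like cluster (199.8 CPM). Tnfsf18, the ligand of Tnfrsf18, was highest in fibroblast-like cluster 10, from 5 UMIs. Each of these cells was kept only if it had a Cd4 UMI, so the levels describe such barcodes and not the tissue.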

How the data were processed

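The deposited tables hold UMI counts per gene and cell barcode, 1 table per library, and the authors' list of kept cells. The submitters' processing notes name Cell Ranger 3.1.0, Seurat 4.0.1 and mm10. Gene names came from the deposited row-name list, whose order was checked against the 1 table with identifiers (30468 of 30934 identifiers, 98.5%, matched the symbol of their row). The kept cells had at least 400 genes, at most 19.9% mitochondrial UMIs and at least 1 Cd4 UMI, as tested on the files. A doublet caller marked 3 of 27420 cells (0.0109%), which is not a working call, so doublets stayed in.

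Cells were clustered with scanpy 1.11.5 and leidenalg 0.10.2 (Python 3.11.15) on 1854 variable genes without the members and their pathway lists, with 30 principal components, 15 neighbours and a resolution of 1. Clusters were named from marker lists, with score thresholds set after the clusters were seen. UMIs were summed per library and population (6176560 to 14943449 UMIs in CD4 T cells) and tested in R 4.3.3 with edgeR 4.0.16 (quasi-likelihood test, TMM, filterByExpr, all 8 libraries in 1 fit, Benjamini-Hochberg over all tested genes, threshold 0.05). DESeq2 1.42.0 and limma 3.58.1 served for alternatives. The edgeR script was tested on simulated data. The Foxp3 gate had the library as a block and left Foxp3 itself out. Groups came from the labels, whose titles give each library its own animal number. Counts of the 2 libraries of each group differed by more than counting noise. Alternatives were another tool, normalization, filter, library set, clustering, gate and depth, each library left out in turn, and, chosen after seeing the data, a subset by DSS model, cells without a Foxp3 UMI and removal of barcodes with other cell types' markers.

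The text names all 7 members, at most 6 passing genes per list and comparison by smallest p, and the 3 most alike genes per member with r of at least 0.8. Some passing genes of the lists are not reported here. The members and lists were chosen with earlier results of these data known. Printed 95% intervals of log2 differences are 1.96 standard errors to either side. This is a normal approximation, which can be too narrow with 2 libraries per group.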

Additional observations from a re-analysis of the deposited data

Results flagged for a closer look

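The results here were singled out because the effect of DSS on a member differed between subsets of CD4 T cells by a test of the difference itself (edgeR, with the library as a block). All concern the proliferating-like cluster, which was not compared with clusters 3, 7 and 8. Against Treg-like cells, its log2 effect was higher by 1.13 for Tnfrsf9 (SE 0.14, adjusted p = 5.66e-07) and by 0.62 for Tnfrsf4 (adjusted p = 7.62e-06). Against Th17-like cells, it was higher by 0.96 for Tnfrsf9 (adjusted p = 0.00252), by 0.85 for Tnfrsf4 (2.3e-05) and by 0.53 for Tnfrsf18 (0.017), and the difference for Tnfrsf1b was -0.59 (0.0112). Against Th1-like cells, the differences were 1.28 for Tnfrsf9 (edgeR adjusted p = 8.8e-06), 0.48 for Tnfrsf4 (0.00896) and -0.52 for Tnfrsf1b (0.0321).

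With each of the 8 libraries left out in turn, Tnfrsf9 passed 8 times in all 3 comparisons and Tnfrsf4 8, 8 and 7 times, against Treg-like, Th17-like and Th1-like cells. Tnfrsf18 passed 5 times against Th17-like cells, and Tnfrsf1b 6 times against Th17-like and 2 times against Th1-like cells. The share of cells with a Foxp3 UMI in the proliferating-like cluster was 8.43% to 15.98% in the untreated and 29.2% to 43.8% in the DSS libraries, and that of the Treg-like cells 43.6% to 49.8% and 55.7% to 69.0%. The part of these shares in the differences was not tested.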

How the results depend on the processing

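For single members, alternatives were tallied for the Foxp3 comparison and for DSS over both genotypes in CD4 T, Treg-like, Th17-like and Th1-like cells. Calls within 1 genotype and in the other clusters were not part of this tally. Of the tallied values, 454 stayed on the same side of the threshold, 23 lost their call and 13 gained a call. No member that passed in these comparisons turned its direction. Members that did not pass did change sign under some alternatives: Tnfrsf25 ranged from -0.20 to 0.19 in the Foxp3 comparison other than with a library left out, and, with 1 library left out, with DSS from -0.31 to 0.37 in Treg-like, -0.14 to 0.25 in Th17-like and -0.01 to 0.43 in CD4 T cells. Tnfrsf18 with DSS in CD4 T cells ranged from -0.15 to 0.04, and Cd28 from -0.12 to 0.04 in Treg-like and -0.17 to 0.02 in Th1-like cells. The count of called members was 0 in every setting of the mutant comparisons and of the difference of DSS effects. These are among the counts that stayed, and they say nothing of how the DSS counts held. Counts were tallied too, mostly of called members but also of members highest in a Treg-like cluster and above the fibroblast-rich barcodes. Of all these counts, 333 stayed within 1.5 times and 39 did not. Outside the fits that left out a library, the latter all concerned DSS in wildtype mice: in CD4 T cells DESeq2 and edgeR without a filter on low counts called 2 members (1 in the report); in Treg-like cells (0) DESeq2 called 2, no filter 3, only the 4 libraries compared 1 and the Foxp3 gate 1; in Th17-like cells (0) DESeq2 1, no filter 3 and only 4 libraries 2; in Th1-like cells (0) DESeq2 1, no filter 1, only 4 libraries 1 and removal of barcodes with other cell types' markers 1. For DSS in wildtype CD4 T, Treg-like, Th17-like and Th1-like cells, DESeq2 called 207 of 11042, 54 of 8271, 19 of 7817 and 48 of 7767 genes. The shares of all genes under the other settings are not reported here. The cause of these differing counts was not tested.

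With 1 library left out, the members called for DSS in wildtype mice ranged from 0 to 2 in CD4 T, Treg-like and Th17-like cells and from 0 to 1 in Th1-like cells. For DSS in mutants they ranged from 0 to 3 in CD4 T, Th17-like and Th1-like cells and from 0 to 2 in Treg-like cells. In mutant CD4 T cells the count was 0 without untreated mutant replicate 1 and 1 without replicate 2 of either mutant group, and in wildtype CD4 T cells 0 without replicate 2 of either wildtype group. In mutant Treg-like cells it was 0 without either untreated mutant or DSS-treated mutant replicate 2, in mutant Th17-like cells 1 and 0 without untreated mutant replicates 1 and 2, and in mutant Th1-like cells 0 without replicate 2 of either mutant group. Over both genotypes it ranged from 2 to 4 in Th17-like cells, with 2 without untreated wildtype or untreated mutant replicate 2, and from 1 to 3 in Th1-like cells, with 1 without replicate 2 of either wildtype group. A group then holds 1 library, which is assumed to vary like the others.

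Of all genes, DESeq2 called 207 for DSS in wildtype CD4 T cells and edgeR 22, and 15 against 0 for the untreated mutants. Over both genotypes DESeq2 called 410 against 777 in Treg-like, 270 against 653 in Th17-like and 423 against 1139 in Th1-like cells. The groups share no replicate numbers in the labels. A replicate block of libraries with neighbouring animal numbers called 0 members in the mutant comparisons and for the difference of DSS effects. Leaving out doublets was not run, since the caller did not work. With 2 mice per group the intervals of the genotype comparisons are wide, and Tnfrsf25, at 27.7 to 50.3 CPM, is the member with the fewest counts.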

Other observations

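Outside the CD4 T cells, the innate lymphoid-like cluster had a median of 234 CPM of Tnfrsf9 and 688 CPM of Icos over the libraries, beside its 105 CPM of Tnfrsf25. Each of its barcodes has a Cd4 UMI, and what part of these levels comes from T cells caught with them was not tested.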
